A study of Mus musculus with 6 samples.

Results

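The hypoxia response genes described here are 10 mouse genes taken by symbol, Hif1a, Vegfa, Bnip3, Egln1, Egln3, Adm, Ndrg1, Ankrd37, Car4 and Car9. Each is 1 of the 46517 gene IDs that every table lists. All 10 were among the 20232 genes that passed the filter on low values, which asked for 2 or more of the 6 libraries with a TPM of at least 1. TPM is a transcript abundance per length scaled to the same sum in every library. The libraries came from E14TG2a, a mouse embryonic stem cell line that goes back to 1 clone and is labelled wild type, without any labelled treatment other than its differentiation. There were 2 libraries, labelled biological replicates, at each of 3 stages. The first was stem cells kept on gelatin with serum and LIF (mESC), the next neuronal progenitors (NPC). The final stage is abbreviated NC, which the labels do not spell out, and is read here as the glutamatergic pyramidal neurons of the design text. The cell type entry of all 6 samples says embryonic stem cells, so the stage was taken from the sample titles. No library is labelled as hypoxic, and the oxygen tension of the cultures was not given in the sources used here. Whether the replicates came from separate cultures is not said either, so p-values measure only the spread between these libraries.

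Cells answer a lack of oxygen through the hypoxia-inducible factors, or HIFs. These transcription factors pair an oxygen-labile alpha subunit with a stable ARNT subunit. With oxygen present, prolyl hydroxylases mark the alpha subunit, the VHL ubiquitin ligase recognises it and the proteasome destroys it. When oxygen falls, the alpha subunit persists and the pair binds short DNA motifs beside genes of blood vessel growth, glycolysis, mitochondrial turnover and pH control. Several hydroxylase genes are themselves HIF targets, which closes a feedback loop. Because the alpha subunit is controlled mainly as a protein, the amount of its RNA is not a measure of HIF activity.

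The motif core ACGTG or GCGTG, read on both strands, was looked up in the 250 bases before the RefSeq transcription start (GRCm38.p6 build) of each gene. RefSeq promoter entries were matched for 9 of the 10 genes by symbol, Vegfa with 2 starts and so 10 windows in all. ACGTG lay in at least 1 window of 7 of the 9 genes and either core in that of 8, with Car4 as the 1 gene without a match. The matches of Vegfa lay only in its window within the span of the gene (chr17:46025164-46025413). Its window before the outer start (chr17:46032378-46032627) held none. The single Hif1a window, with 3 ACGTG matches, also lay within the span of its gene (chr12:73907617-73907866). Counted by window, ACGTG lay in 7 of the 10. Of all 32851 RefSeq windows of that length, 16.6% held ACGTG, 28.2% held GCGTG and 38.6% held either. The windows of 4 genes follow in lower case, each 5′ to 3′ on the strand of its gene, with the matches in capitals. CACGT and CACGC are the cores read from the other strand, CACGTG counts as a match on both strands, and in CACGCGTG 2 matches overlap. Bnip3 (chr7:138909507-138909756, minus strand) and Ankrd37 (chr8:45999851-46000100, minus strand) are shown because their windows held the most matches, 5 and 4, where 2.58% of all windows held at least 4. Egln1 (chr8:124949255-124949504, minus strand) and Adm (chr7:110627407-110627656, plus strand), with 2 matches each, are shown for their levels in NPC.
Bnip3: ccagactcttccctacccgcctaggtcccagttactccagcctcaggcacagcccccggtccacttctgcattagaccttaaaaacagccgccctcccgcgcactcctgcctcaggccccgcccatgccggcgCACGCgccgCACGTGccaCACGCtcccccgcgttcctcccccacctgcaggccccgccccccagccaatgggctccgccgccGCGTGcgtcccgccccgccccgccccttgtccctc
Ankrd37: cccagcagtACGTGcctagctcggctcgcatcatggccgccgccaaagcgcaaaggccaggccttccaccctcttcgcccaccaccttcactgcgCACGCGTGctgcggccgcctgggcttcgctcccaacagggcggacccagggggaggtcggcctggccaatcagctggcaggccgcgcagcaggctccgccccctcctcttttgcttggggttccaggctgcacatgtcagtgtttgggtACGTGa
Egln1: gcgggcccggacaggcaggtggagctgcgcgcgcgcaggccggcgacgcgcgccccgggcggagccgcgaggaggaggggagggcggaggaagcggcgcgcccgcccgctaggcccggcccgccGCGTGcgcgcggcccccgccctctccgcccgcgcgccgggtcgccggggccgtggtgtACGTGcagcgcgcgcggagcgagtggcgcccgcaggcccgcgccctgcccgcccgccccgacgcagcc
Adm: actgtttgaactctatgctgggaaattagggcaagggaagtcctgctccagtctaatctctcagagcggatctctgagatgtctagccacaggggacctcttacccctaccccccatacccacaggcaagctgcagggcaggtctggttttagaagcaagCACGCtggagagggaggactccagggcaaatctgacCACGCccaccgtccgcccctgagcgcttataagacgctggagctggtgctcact
The 2 matches of the Adm window were both the GCGTG core, whereas Egln1 held 1 of each. These are matches of letters, and binding at them was not measured.

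The 6 libraries held between 1.574 and 2.267 Gb of aligned bases and between 16667 and 19040 genes at 1 TPM or more. Summed over 5 pluripotency markers, TPM was 4138 and 4221 in mESC, 5.07 and 3.89 in NPC, with 13.2 and 9.35 in NC. Most of the NC sum was Esrrb (12.3 and 8.44 TPM), and Pou5f1 was listed at 0 in both NC libraries. Over 7 neuron markers it was 92.3 and 124 in mESC, 572 and 864 in NPC, with 3079 and 2919 in NC. The glutamate transporter gene Slc17a6 reached 28.9 and 21.6 TPM in NC from 0.187 and 0.572 in NPC and a listed 0 in mESC, while Slc17a7, the transporter of cortical pyramidal neurons, was no higher in NC (3.21 and 1.69) than in mESC (2.86 and 2.07). Neural progenitor markers (5 genes) summed to 187 and 241 TPM in mESC, 1356 and 1443 in NPC, with 2470 and 1685 in NC. Among these, the NC libraries differed most in Fabp7 (792 and 164 TPM) and Hes5 (131 and 13.7). The markers of other cells also moved with the stages. Astrocyte markers (6 genes) summed to 159 and 108, 195 and 198, and 208 and 108, with Aldh1l1 at 59.3 and 1.89 in NC. Most of the mESC sum was Gja1, at 125 and 90.4 TPM there and 50.8 and 59.2 in NC. Slc1a3 moved the other way, from 17.2 and 11.3 TPM in mESC to 87.1 and 45.9 in NC. Oligodendrocyte markers (7 genes) did not exceed a sum of 43.0. Endoderm markers (7 genes) summed to 93.9 and 21.3 TPM in mESC, 198 and 129 in NPC, with 29.6 and 53.7 in NC, and fibroblast and mural markers (10 genes) to 151 and 87.2, 75.4 and 106, and 932 and 1112. Endothelial markers (8 genes) lay between 13.6 and 55.6, a range that hides opposite moves. Pecam1 stood at 34.8 and 19.7 TPM in mESC and 1.57 and 1.54 in NPC. Flt1 stood at 2.28 and 1.23 TPM in mESC and 41.3 and 31.5 in NPC. Flt1 and Kdr are also VEGF receptor genes described below. Microglia and blood markers did not exceed a sum of 4.58. The part that such cells had in the levels below was not tested. Fewer cells of a type and less RNA per cell cannot be told apart in these bulk samples.

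The 2 mESC libraries stood apart in the hypoxia response genes themselves, which bears on every comparison with mESC. In mESC, 9 of the 10 genes had a higher TPM in replicate 1 than in replicate 2, against 55.0% of all tested genes, and Hif1a was the exception. Differences over 1 on the log2(TPM + 1) scale were seen for 4 of the 10, Vegfa, Car4, Bnip3 and Ndrg1, against 4.38% of all tested genes. Vegfa was 3.88 times as high in replicate 1, Car4 3.26 times, Bnip3 2.94 times and Ndrg1 2.13 times. The median log2 difference over the 10 genes was 0.81, and over all tested genes 0.05. Of 54 other genes listed as HIF targets, 43 were higher in mESC replicate 1, 15 of them by over 1 on the log2 scale. Among these 15 were the collagen-modifying hydroxylases P4ha1 (77.0 and 21.9 TPM), P4ha2 (60.2 and 14.3) and Plod2 (88.0 and 25.8), singled out after their values were seen. All 7 endoderm markers were higher in the same library, with Afp, Ttr and Apoa1 listed at 0 in replicate 2, and their part in the difference was not tested. With 1 library on each side this compares libraries, not conditions, and carries no test.

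In NPC the replicates lay closer, with 2 of the 10 genes (44.5% of all tested genes) higher in replicate 1, Car4 by 1.93 times and Ndrg1 by 1.32 times. The 54 other HIF targets also leaned to 1 side there, with 7 of them (13.0%) higher in NPC replicate 1. None of the 54 differed by over 1 on the log2 scale in NPC. In NC 29 of the 54 were higher in replicate 1. In NC, 4 of the 10 genes (46.2% of all tested genes) were higher in replicate 1. Ankrd37 was 8.45 times and Bnip3 1.89 times as high there, while Ndrg1 in replicate 1 was 0.548 times its level in replicate 2.

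**Figure D1:**
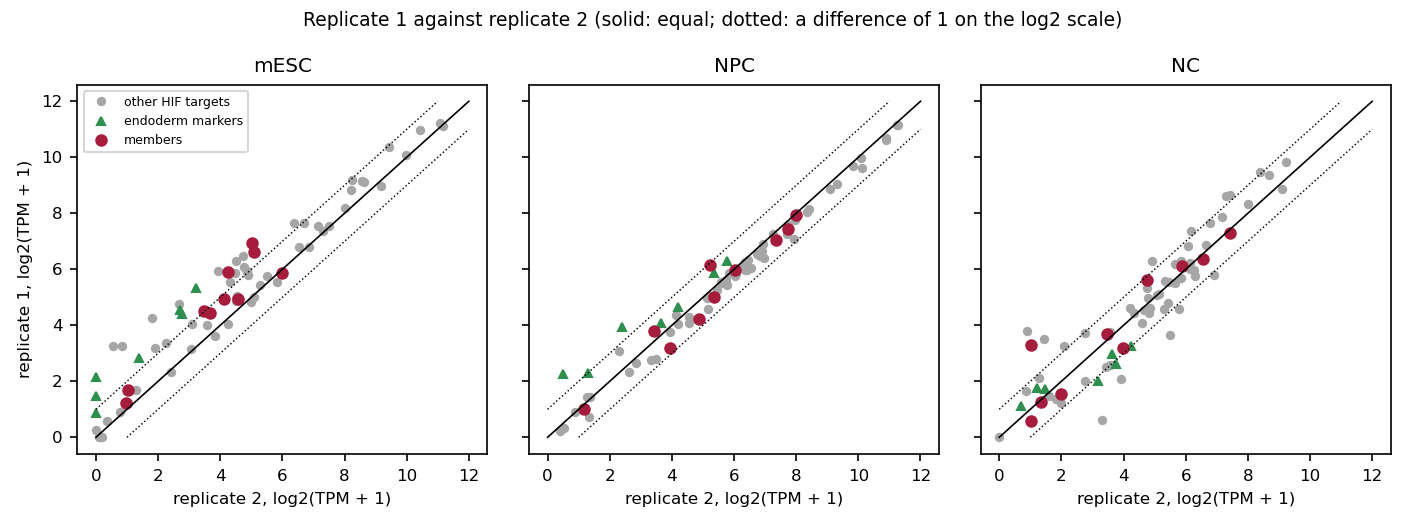
Replicate 1 (y axis) against replicate 2 (x axis) of each stage, both as log2(TPM + 1), for the 10 hypoxia response genes (red), the other listed HIF targets (grey) and the endoderm markers (green); the solid line marks equal values and the dotted lines a difference of 1. In mESC 9 of the 10 red points lie above the solid line and 4 lie above the upper dotted line, whereas in NPC none passes a dotted line and in NC only Ankrd37 does.

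Stages were compared with limma on log2(TPM + 1), fitted to all 6 libraries and adjusted over all tested genes by Benjamini-Hochberg, with a gene called at an adjusted p under 0.05. From mESC to NPC, 40.0% of all tested genes were called, 26.0% higher and 14.0% lower. From NPC to NC 25.3% were called, 15.2% higher and 10.1% lower. NC against mESC called 59.9%, 37.8% higher and 22.1% lower. Over all tested genes the median log2 fold change was 0.18, 0.11 and 0.31 in the 3 comparisons, and -0.01, 0.04 and 0.05 after median-of-ratios scaling. Genes called higher made up 65.0%, 60.1% and 63.2% of all calls as deposited, 52.7%, 54.6% and 52.3% after median-of-ratios scaling, 51.2%, 47.7% and 47.2% after quantile normalization, and 58.2%, 47.0% and 53.0% in FPKM.

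Of the 10 hypoxia response genes, 4 rose from mESC to NPC (Vegfa, Bnip3, Egln1 and Adm) and none fell. From NPC to NC, 5 fell (Bnip3, Egln1, Adm, Ankrd37 and Car4) and none rose. Between mESC and NC, Hif1a and Egln1 were higher and Egln3 and Car4 lower in NC, beside 37.8% and 22.1% of all tested genes. That split of 2 and 2 depended on the scaling and the libraries: it was 1 higher and 3 lower after median-of-ratios scaling, quantile normalization and in FPKM, and 3 higher and 1 lower without mESC replicate 1. Beside the 26.0% of all tested genes that rose into NPC and the 10.1% that fell from NPC to NC, these are counts over genes chosen with results of these data known. The median log2 fold change of the 10 genes was 0.87 from mESC to NPC, -1.09 from NPC to NC and -0.10 between mESC and NC. Without mESC replicate 1 the first was 1.48 and the last 0.21, so the last changed sign, as it did without NC replicate 1 (0.11), and without mESC replicate 2 they were 0.43 and -0.42. The comparisons share libraries with each other and are not independent.

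**Figure D2:**
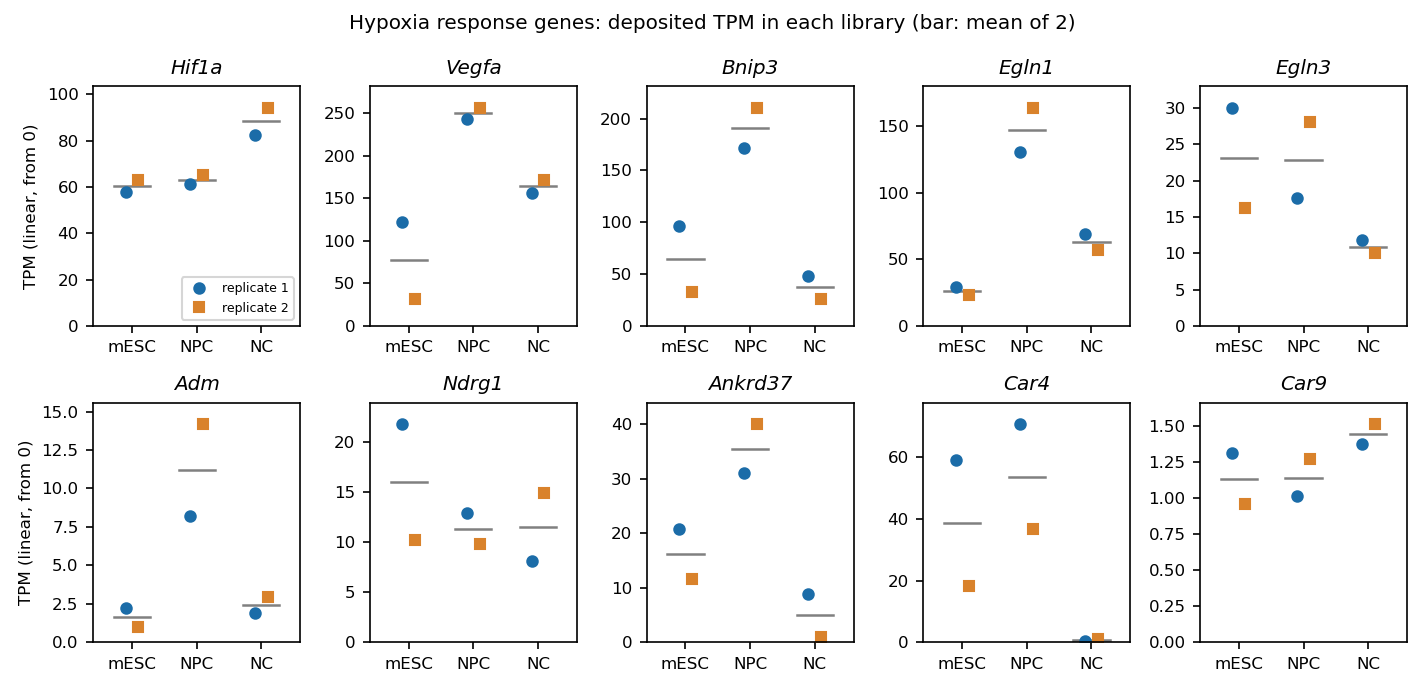
Deposited TPM of the 10 hypoxia response genes on linear axes from 0, with a scale of its own for each gene; circles are replicate 1, squares replicate 2 and bars the mean of the 2. Vegfa, Bnip3, Egln1, Adm and Ankrd37 are higher in both NPC libraries than in any other, and Car4 lies between 0.493 and 1.05 TPM in NC.

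Hif1a encodes the alpha subunit of HIF-1 and is the regulator among the 10 (ENSMUSG00000021109.12, chromosome 12, 73901375 to 73947530, plus strand, mm10). It stood at 57.7 and 63.0 TPM in mESC, replicate 1 before replicate 2 here and throughout, 61.2 and 64.9 in NPC, with 82.5 and 94.1 in NC. Both NC libraries lay above the other 4, while mESC and NPC overlapped. NC was higher than mESC by a log2 fold change of 0.54 (SE 0.141, limma adjusted p = 0.0153). Relative to the median of all tested genes this was 0.23. The call was lost after median-of-ratios scaling and quantile normalization, in FPKM, in depth-scaled coverage and without NC replicate 2, with log2 fold changes from 0.23 to 0.63 over 16 alternatives. NC against NPC gave 0.48 (limma adjusted p = 0.0505) and NPC against mESC 0.06 (adjusted p = 0.758). The antisense gene Gm15283, between 0.977 and 4.55 TPM, overlaps Hif1a, and the strand setting of the counting is not known.

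Arnt2 was the subunit gene called in all 3 comparisons. This ARNT paralogue of the nervous system rose from 7.16 and 6.55 TPM in mESC to 48.0 and 49.3 in NPC (log2 fold change 2.66, limma adjusted p = 0.00019), and to 116 and 82.7 in NC (0.99 against NPC, adjusted p = 0.0150). That second step was not called without either NPC library. Arnt itself, the general partner, lay between 38.2 and 58.3 TPM with no call in any comparison. Epas1, which encodes the HIF-2 alpha subunit, stood at 41.8 and 49.3 TPM in mESC, 50.0 and 29.8 in NPC, with 15.2 and 27.2 in NC. Epas1 was lower in NC than in mESC (log2 fold change -1.12, limma adjusted p = 0.0265), a call lost without either mESC library or without NC replicate 1. Hif3a lay between 2.14 and 8.62 TPM and was not called. Of the 5 subunit genes, 1 rose and none fell into NPC (26.0% and 14.0% of all tested genes). From NPC to NC 1 rose and none fell (15.2% and 10.1%). Between mESC and NC 2 were higher and 1 lower in NC (37.8% and 22.1%). That last balance turned to 1 higher and 2 lower after median-of-ratios scaling, with Arnt called lower (-0.71) and Hif1a not called, and to 1 higher and 3 lower after quantile normalization, with Hif3a (-1.27) called as well. The rise from NPC to NC was not called without either NPC library.

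Egln1 encodes PHD2, the main prolyl hydroxylase that marks HIF alpha subunits for destruction (ENSMUSG00000031987.5, chromosome 8, 124908596 to 124949254, minus strand). Its TPM was 29.5 and 22.9 in mESC, 131 and 164 in NPC, with 68.9 and 57.4 in NC. The 3 stages did not overlap, with NPC highest and mESC lowest. Egln1 rose from mESC to NPC by a log2 fold change of 2.45 (SE 0.196, limma adjusted p = 0.000249) and was still 1.24 above mESC in NC (adjusted p = 0.00204). These 2 comparisons and Car4 between mESC and NC were called under all 16 alternatives, 3 of the 13 calls over the 10 genes. The fall from NPC to NC was -1.21 (limma adjusted p = 0.00860), and it was not called without NPC replicate 1 or without NPC replicate 2.

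Egln3 encodes PHD3, a hydroxylase whose gene is itself a strong HIF target (ENSMUSG00000035105.5, chromosome 12, 54178981 to 54203860, minus strand). It stood at 30.0 and 16.2 TPM in mESC, 17.6 and 28.1 in NPC, with 11.8 and 9.98 in NC. Both NC libraries were below the other 4, and mESC and NPC overlapped. Between mESC and NC the log2 fold change was -0.96 (SE 0.345, limma adjusted p = 0.0490), at the edge of the threshold. Of 16 alternatives 7 kept the call. It was lost without mESC replicate 1, where the value was -0.53, and without either NPC or either NC library, with adjusted p from 0.00592 to 0.259 over the alternatives. NPC against mESC (0.01) and NC against NPC (-0.97, limma adjusted p = 0.0856) were not called.

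Of the 14 tested genes of oxygen sensing and HIF turnover, Egln1 and Egln3 included, 3 rose and none fell from mESC to NPC. For all tested genes this was 26.0% and 14.0%. From NPC to NC 1 rose and 1 fell (15.2% and 10.1%). Between mESC and NC 8 were higher and 1 lower, where 59.9% of all tested genes were called, 37.8% higher and 22.1% lower. The 8 became 5 after median-of-ratios scaling, after quantile normalization and in FPKM, and 4 without mESC replicate 2. Vhl, the substrate receptor of the ligase, rose from 19.7 and 19.8 TPM in mESC to 41.2 and 44.0 in NPC (log2 fold change 1.07, limma adjusted p = 0.00591) and stood at 51.7 and 36.9 in NC. Hif1an encodes FIH, which blocks the binding of coactivators, and rose from 36.5 and 30.6 TPM to 63.5 and 61.4 in NPC (0.88, adjusted p = 0.00926). Both steps into NPC were lost without NPC replicate 2, and that of Hif1an also without mESC replicate 2 or NPC replicate 1. Cited2, which competes with HIF for its coactivators, rose from 47.2 and 46.9 TPM in NPC to 82.7 and 114 in NC (1.03, limma adjusted p = 0.0153), a call lost without either NPC library or without NC replicate 2. Between mESC and NC, Egln2 (0.48), the ligase subunit Rbx1 (0.65), the ligase Siah2 (1.21) and the coactivator Crebbp (1.23) were higher in NC on the log2 scale. Of these 4, Egln2 was called without each single library but not after median-of-ratios scaling (0.17) or quantile normalization (0.31). Rbx1 was not called after median-of-ratios scaling (0.34), nor Siah2 after quantile normalization (0.63). Crebbp, at 35.9 and 64.5 TPM in NC, lost its call without either mESC library. Siah2 lost it without mESC replicate 2 or NC replicate 1, and Rbx1 without any 1 of the NPC and NC libraries.

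Vegfa encodes the main growth factor for blood vessels and is a classical HIF target (ENSMUSG00000023951.15, chromosome 17, 46016993 to 46032377, minus strand). It had the highest mean TPM of the 10 at each stage, although not beyond the spread of the libraries in mESC. By mean coverage Vegfa led in NC only. It stood at 123 and 31.6 TPM in mESC, 243 and 257 in NPC, with 157 and 172 in NC. Both NPC libraries lay above both NC libraries, and these above both mESC libraries. Vegfa rose from mESC to NPC by a log2 fold change of 1.98 (SE 0.546, limma adjusted p = 0.0281). The size turned on the mESC library used, 2.95 without replicate 1 and 1.02 without replicate 2, both called. Leaving out any of the 4 NPC and NC libraries ended the call, with adjusted p from 0.00370 to 0.135, and 10 of 16 alternatives kept it. NC against NPC (-0.60, limma adjusted p = 0.459) and NC against mESC (1.38, adjusted p = 0.0663) were not called. Without mESC replicate 1 and without mESC replicate 2 both were, at 2.34 and 0.42 for NC against mESC.

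Among the 10 genes of VEGF ligands and receptors, 3 rose and 2 fell from mESC to NPC (26.0% and 14.0% of all tested genes). From NPC to NC 2 rose and 1 fell (15.2% and 10.1%). Between mESC and NC 3 were higher and 3 lower (37.8% and 22.1%). After median-of-ratios scaling, quantile normalization and in FPKM that last split was 3 higher and 5 lower, with Vegfb and Kdr called lower in NC. None of the 10 was called from NPC to NC without NPC replicate 1, and no fall into NPC was called without mESC replicate 1 or either NPC library. Flt1, which encodes the decoy receptor VEGFR1, rose from 2.28 and 1.23 TPM in mESC to 41.3 and 31.5 in NPC (log2 fold change 3.78, limma adjusted p = 0.000189). It fell to 10.6 and 9.04 in NC (-1.78, adjusted p = 0.00783), a call lost without NPC replicate 1. Kdr, the signalling receptor VEGFR2 of endothelium, stayed between 0.527 and 2.06 TPM with no call on the TPM scale. The neuropilins, which bind both VEGF and the semaphorins of axon guidance, were higher in NC. Nrp1 rose from 0.889 and 0.503 TPM in mESC to 16.3 and 17.7 in NPC and 34.6 and 57.4 in NC (4.76 between mESC and NC, limma adjusted p = 5.07e-05). Nrp2 stood at 30.3 and 30.4 TPM in mESC, 28.9 and 44.6 in NPC, with 213 and 133 in NC (2.20 against NPC, adjusted p = 0.00473). Without NPC replicate 1 the step from NPC to NC was lost for both, and that of Nrp1 (1.34) also without NPC replicate 2, either mESC library or NC replicate 2.

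Flt4, which encodes VEGFR3, fell from 9.31 and 4.74 TPM in mESC to 1.17 and 2.00 in NPC (log2 fold change -1.59, limma adjusted p = 0.0151) and stood at 0.319 and 0.721 in NC. Its ligand gene Figf, which encodes VEGF-D, fell by 0.86 on that scale from mESC to NPC (adjusted p = 0.0320), from 2.09 and 1.47 TPM to 0.426 and 0.616. Both genes were called lower in NC than in mESC without each single library. Vegfc was lower in NC than in mESC (-1.01, limma adjusted p = 0.0394), a call lost without any 1 library other than NC replicate 2. Vegfb (36.3 to 70.7 TPM) and Pgf (0.622 to 3.70 TPM) were not called on the TPM scale. In FPKM Vegfb was called lower in NC than in NPC (-0.76) and than in mESC (-0.82).

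Adm encodes adrenomedullin, a secreted peptide that widens vessels (ENSMUSG00000030790.13, chromosome 7, 110627661 to 110629820, plus strand). It stood at 2.24 and 1.02 TPM in mESC, 8.23 and 14.2 in NPC, with 1.93 and 2.92 in NC. Both NPC libraries were above the other 4, and mESC and NC overlapped. Adm rose into NPC by a log2 fold change of 2.21 (SE 0.376, limma adjusted p = 0.00459), a call lost only without mESC replicate 2 among 16 alternatives. It fell from NPC to NC by 1.80 (adjusted p = 0.0176), and 11 of 16 alternatives kept that call. No filter on low values and leaving out any NPC or NC library ended it, with adjusted p from 0.00938 to 0.115.

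In the adrenomedullin system, 3 of 6 tested genes rose and none fell into NPC (26.0% and 14.0% of all tested genes). From NPC to NC none rose and 2 fell (15.2% and 10.1%). Between mESC and NC 2 were higher and 1 lower in NC (37.8% and 22.1%). Without mESC replicate 2, 1 rose and 1 fell into NPC, and without NPC replicate 1 none was called from NPC to NC. The largest of these changes was in Ackr3, a scavenger receptor that takes up adrenomedullin and the chemokine CXCL12. Ackr3 rose from 0.714 and 1.62 TPM in mESC to 80.0 and 56.4 in NPC (log2 fold change 5.01, limma adjusted p = 7.55e-05). It fell to 16.1 and 16.3 in NC (-1.99, adjusted p = 0.00627), a call lost without NPC replicate 1. The signalling receptor Calcrl was low, 0.479 and 0.264 TPM in mESC, 1.75 and 1.33 in NPC, with 1.71 and 3.11 in NC, and higher in NC than in mESC (1.29, limma adjusted p = 0.00958), lost without mESC replicate 2 and after quantile normalization. Its partner Ramp3 rose from 9.93 and 10.2 TPM to 17.3 and 16.9 in NPC (0.71, adjusted p = 0.0219), lost without any 1 of the 4 mESC and NPC libraries and after either scaling. Ramp2 ranged from 7.30 to 56.5 TPM without a call, and Ramp1 was below the filter. Adm2, a related peptide, stood at 10.8 and 1.68 TPM in mESC and at 1.00 and 1.09 in NPC, and was listed at 0 in both NC libraries. It was lower in NC than in mESC (limma adjusted p = 0.0141), lost without either NC library.

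Bnip3 encodes an outer mitochondrial membrane protein that marks mitochondria for autophagy (ENSMUSG00000078566.7, chromosome 7, 138890836 to 138909519, minus strand). It stood at 96.8 and 32.9 TPM in mESC, 171 and 210.3 in NPC, with 48.6 and 25.7 in NC. Both NPC libraries were above the other 4, and mESC and NC overlapped. Bnip3 rose into NPC by a log2 fold change of 1.73 (SE 0.511, limma adjusted p = 0.0358), and 8 of 16 alternatives kept that call. It was lost without mESC replicate 2, at 0.96, and without any 1 of the NPC and NC libraries, with adjusted p from 0.0160 to 0.177. Bnip3 fell from NPC to NC by 2.39 (limma adjusted p = 0.0190), and this call too was lost without any 1 of the NPC and NC libraries, with adjusted p from 0.0105 to 0.122. The log2 fold change of that fall lay between -2.83 and -1.94 in the 16 alternatives.

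Bnip3l, the closest relative of Bnip3 and likewise a HIF target, stood at 53.0 and 44.6 TPM in mESC, 153 and 151 in NPC, with 77.4 and 56.5 in NC. It rose by a log2 fold change of 1.63 into NPC (limma adjusted p = 0.000973), called without each single library, and fell by 1.19 into NC (adjusted p = 0.00781), lost without either NPC library. Of the 8 mitophagy genes listed, 5 rose and 1 fell from mESC to NPC (26.0% and 14.0% of all tested genes). From NPC to NC none rose and 4 fell (15.2% and 10.1%). Between mESC and NC 3 were higher and 1 lower in NC (37.8% and 22.1%). The last was 2 and 2 after median-of-ratios scaling and quantile normalization, and none was called from NPC to NC without either NPC library. Pink1, a kinase that tags damaged mitochondria, rose from 16.5 and 10.9 TPM to 47.4 and 54.5 in NPC (1.85, limma adjusted p = 0.00329) and stood at 80.5 and 49.2 in NC. Its partner ligase Park2 rose from 0.315 and 0.308 to 2.04 and 2.07 TPM (1.22, adjusted p = 0.00712). Phb2, an inner membrane protein, fell at both steps, from 405 and 516 TPM in mESC to 276 and 217 in NPC and 135 and 151 in NC, and was called lower in NC than in mESC (-1.67) without each single library. The step into NPC was lost without mESC replicate 2 or NPC replicate 2, and that into NC without any 1 of the NPC and NC libraries. Fundc1 rose into NPC (0.78, limma adjusted p = 0.0259) and Bcl2l13 fell into NC (-0.55, adjusted p = 0.0379). Both calls were lost without any 1 of the mESC and NPC libraries, that of Bcl2l13 also without NC replicate 1 and that of Fundc1 also after either scaling.

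Ndrg1, a stress- and hypoxia-induced gene of the NDRG family (ENSMUSG00000005125.11, chromosome 15, 66929321 to 66969640, minus strand), stood at 21.8 and 10.2 TPM in mESC, 12.9 and 9.79 in NPC, with 8.16 and 14.9 in NC. The 3 stages overlapped. No comparison was called for it, under any alternative, with log2 fold changes of -0.38 (SE 0.415, limma adjusted p = 0.509), -0.02 and -0.41. Of its 3 relatives in the family 2 were called. Ndrg4 stood at 16.2 and 18.4 TPM in mESC, 23.1 and 29.3 in NPC, with 156 and 131 in NC, a rise of 2.42 from NPC to NC (limma adjusted p = 0.00286), called without each single library. Its rise into NPC (0.56, adjusted p = 0.0496) was lost without any 1 library and after either scaling. Ndrg3 rose from 21.9 and 20.5 TPM in mESC to 48.1 and 51.1 in NPC and 80.4 and 69.8 in NC, 1.78 between mESC and NC (limma adjusted p = 0.000152). The step from NPC to NC (0.59) was lost without either NPC library or NC replicate 1 and after either scaling. Ndrg2 differed between the NC libraries, at 25.4 and 2.67 TPM, and was not called.

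Ankrd37 encodes a small ankyrin repeat protein and is among the genes that HIF-1 induces directly (ENSMUSG00000050914.14, chromosome 8, 45996902 to 45999867, minus strand). It stood at 20.7 and 11.7 TPM in mESC, 31.1 and 40.0 in NPC, with 8.89 and 1.05 in NC. The 3 stages did not overlap, with NPC highest and NC lowest. Ankrd37 fell from NPC to NC by a log2 fold change of 3.01 (SE 0.694, limma adjusted p = 0.0240). The size rested on the NC library used, -4.14 without NC replicate 1 and -1.88 without NC replicate 2. Leaving out any 1 of the mESC and NPC libraries ended the call, with adjusted p from 0.0148 to 0.137 over 16 alternatives. NC against mESC (-1.88, limma adjusted p = 0.0529) missed the threshold and was called in 7 of 16 alternatives, at -3.02 without NC replicate 1. NPC against mESC was 1.13 (adjusted p = 0.243). Ankrd37 overlaps Ufsp2, between 31.0 and 43.9 TPM on the other strand, by 57 bases, and Lrp2bp by 565 bases.

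Car4 encodes a membrane-bound carbonic anhydrase, an enzyme that interconverts CO2 and bicarbonate (ENSMUSG00000000805.17, chromosome 11, 84957786 to 84966044, plus strand). It stood at 59.1 and 18.1 TPM in mESC, 70.6 and 36.7 in NPC, with 0.493 and 1.05 in NC. Both NC libraries were far below the other 4, and mESC and NPC overlapped. Car4 was lower in NC than in NPC by a log2 fold change of -4.89 (SE 0.568, limma adjusted p = 0.00380) and than in mESC by -4.28 (adjusted p = 0.000989). The first call was lost without NPC replicate 1, among 16 alternatives. On depth-scaled coverage, an alternative chosen after seeing the data, the values were -2.40 and -1.99, both called. NPC against mESC gave 0.61 (limma adjusted p = 0.436).

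Car9, the tumour-associated carbonic anhydrase used as a marker of hypoxia (ENSMUSG00000028463.13, chromosome 4, 43506966 to 43513729, plus strand), was low throughout. It stood at 1.31 and 0.960 TPM in mESC, 1.01 and 1.27 in NPC, with 1.38 and 1.51 in NC. NC lay just above the other 4 libraries, which overlapped, and no comparison was called for Car9 under any alternative (limma adjusted p = 0.991, 0.602 and 0.506). Gm12454 overlaps it by 1782 bases on the other strand at 0.490 to 5.24 TPM. The 2 cannot be told apart without a known strand setting, so the level of Car9 is uncertain.

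Of 13 tested carbonic anhydrase genes, 3 rose and 1 fell from mESC to NPC (26.0% and 14.0% of all tested genes). From NPC to NC 1 rose and 6 fell (15.2% and 10.1%). Between mESC and NC 3 were higher and 5 lower in NC (37.8% and 22.1%). The 6 falls into NC were 1 without NPC replicate 1, 2 without NC replicate 1, 3 without NPC replicate 2 and 4 without any other single library. Car14, another membrane-bound member, stood at 2.67 and 2.86 TPM in mESC, 115 and 113 in NPC, with 12.7 and 11.1 in NC. It rose by a log2 fold change of 4.94 into NPC (limma adjusted p = 2.08e-05) and fell by 3.16 into NC (adjusted p = 0.00206), each called without each single library. The cytosolic Car2 stood at 102 and 219 TPM in mESC, 101 and 54.7 in NPC, with 4.65 and 11.3 in NC. It was lower in NC than in mESC (-4.17, limma adjusted p = 0.000719) and than in NPC (-3.18, adjusted p = 0.00850, lost without NPC replicate 1 or NC replicate 1). The catalytically silent relatives Car10 and Car11 were higher in NC than in mESC, by 3.51 and 2.67 on the log2 scale, Car10 from a listed 0 in both mESC libraries, where the fitted value depends on the pseudocount. Car3 rose into NPC (3.38) and fell into NC (-2.96), Car12 fell into NC (-1.59), and Car13 fell at both steps (-0.97 and -1.02). Each of these 5 calls was lost without at least 3 single libraries. Car5a was lower in NC than in mESC, 1.60 and 1.02 TPM against 0 and 0.0553.

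**Figure D3:**
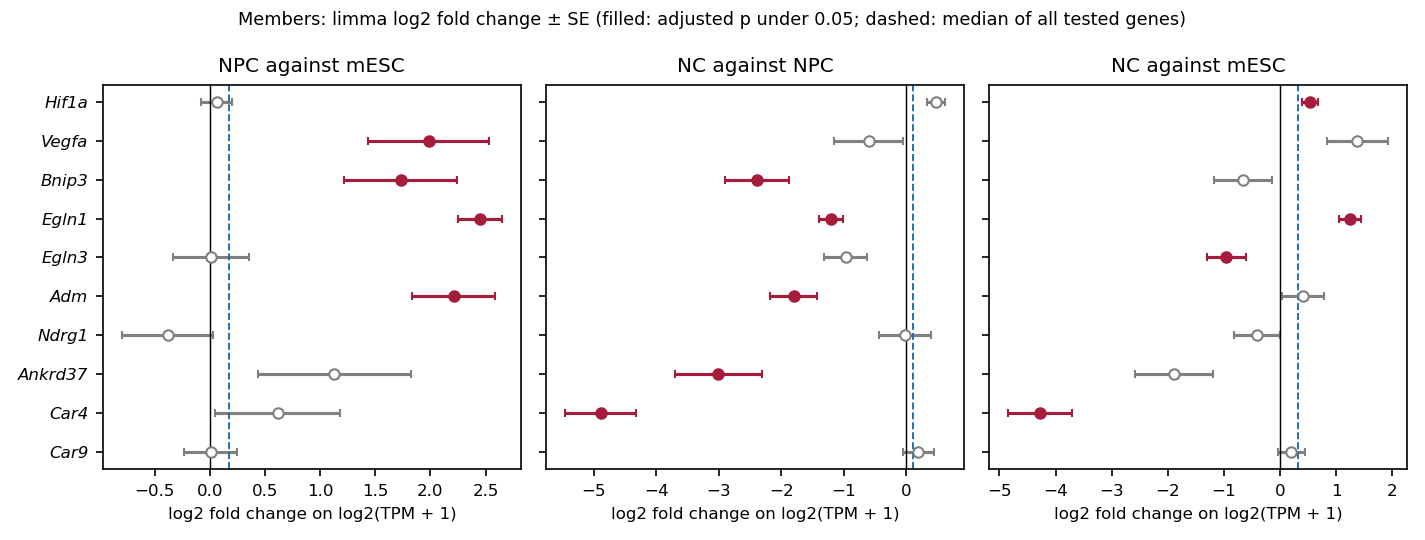
limma log2 fold change (x axis, log2(TPM + 1) scale) of the 10 hypoxia response genes in each comparison, with bars of 1 SE; filled points have an adjusted p under 0.05, the solid line marks 0 and the dashed line the median of all tested genes. From mESC to NPC 4 filled points lie to the right of 0, from NPC to NC 5 lie to the left, and Car4 reaches -4.89.

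Many of these calls were lost when a single library was left out. Each such fit also has fewer residual degrees of freedom, so a lost call need not mean a smaller change. Without NPC replicate 1 the median log2 fold change of the 10 genes from NPC to NC was -1.33, against -1.09 with all 6 libraries. With both NPC libraries in the fit 5 of the 10 genes fell from NPC to NC, without NPC replicate 1 none was called and without NPC replicate 2 only Car4. Over all tested genes the calls of that comparison went from 5123 to 309 and 1276. From mESC to NPC 4 of the 10 genes rose, and 2 did without mESC replicate 2, without either NPC library or without NC replicate 1. A group left with 1 library was taken to vary like the others. No call of the 10 genes changed sign under any of the 16 alternatives. Of the calls of the other pathway genes, 18 of 44 from mESC to NPC, 6 of 40 from NPC to NC and 39 of 61 between mESC and NC were made without each single library.

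**Figure D4:**
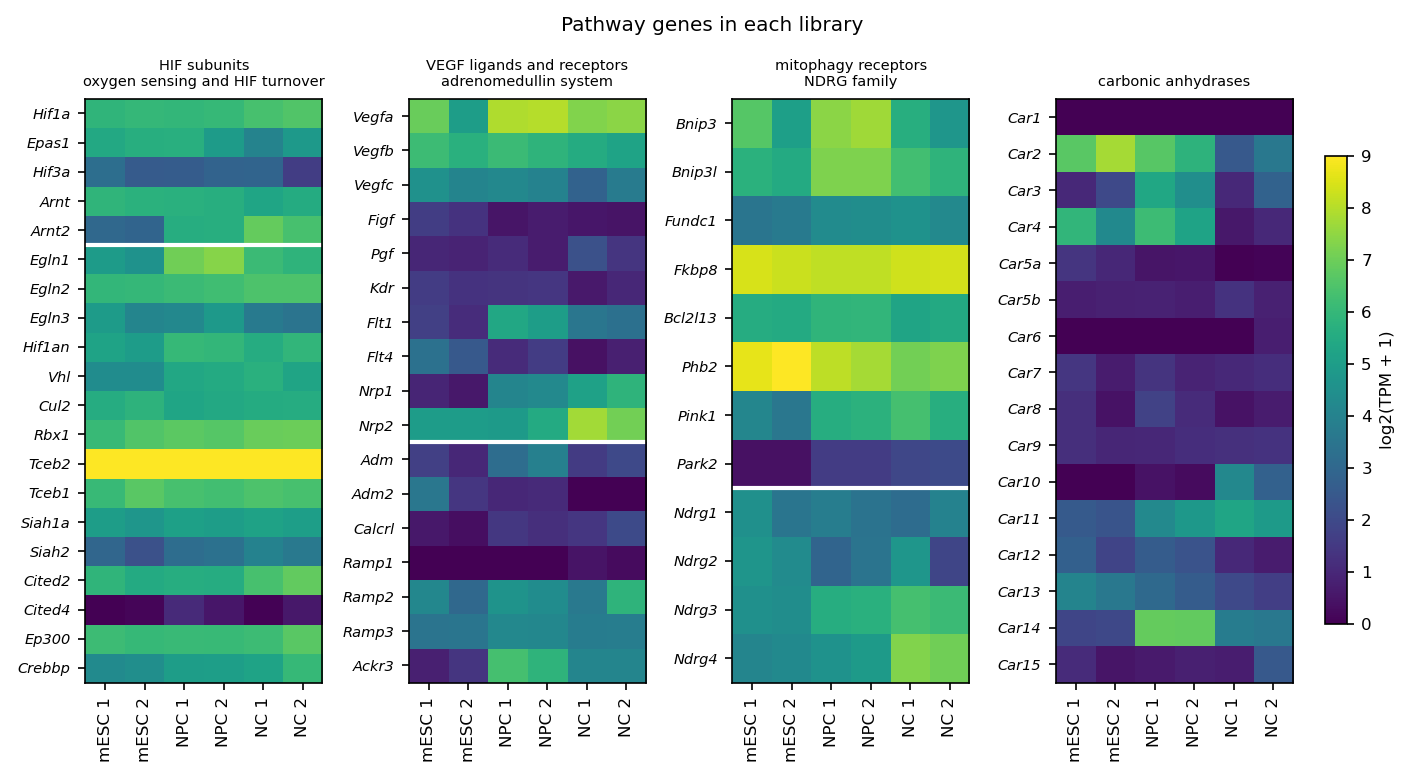
log2(TPM + 1), as colour, of the genes of the HIF subunit, oxygen sensing, VEGF, adrenomedullin, mitophagy, NDRG and carbonic anhydrase lists (y axis) in each of the 6 libraries (x axis); white lines part the lists and values above 9 share the top colour. Egln1, Flt1, Ackr3, Bnip3l and Car14 are brightest in both NPC libraries, whereas Arnt2, Nrp1 and Ndrg4 are brightest in both NC libraries.

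The 54 other HIF target genes were counted beside the 10. Among all tested genes, 26.0% rose and 14.0% fell from mESC to NPC (median log2 fold change 0.18). From NPC to NC it was 15.2% and 10.1% (0.11), and between mESC and NC 37.8% and 22.1% (0.31). From mESC to NPC 19 of the 54 rose and 6 fell, with a median log2 fold change of 0.73. Without mESC replicate 2, 10 rose and 5 fell (median 0.52), and without NPC replicate 1 or NPC replicate 2 the rises numbered 11 and 7. Without mESC replicate 1, 21 rose and 3 fell. From NPC to NC 3 rose and 21 fell (median -0.84), with 4 falls called without NPC replicate 1 and 9 without NPC replicate 2. Between mESC and NC 11 were higher and 19 lower (median -0.19). Without mESC replicate 1 this turned to 14 higher and 11 lower (median 0.13), and without mESC replicate 2 it was 9 and 19 (median -0.72). Stc1, a secreted regulator of calcium and phosphate, rose from 0.188 and 0 TPM in mESC to 5.84 and 9.14 in NPC. Vldlr (2.96), Loxl2 (2.67) and Ppp1r3c (2.67) also rose into NPC, each with a call lost without at least 3 single libraries. Falling into NPC were Angptl4 (-2.71), the glucose transporter Slc2a3 (-2.04) and the hexokinase Hk2 (-1.46), the last 2 called without each single library. From NPC to NC the glucose transporter Slc2a1 fell most, from 998 and 1096 TPM to 22.7 and 53.7 (-4.86, limma adjusted p = 0.00299), followed by Pdk1 (-3.43), Slc16a3 (-3.42) and Ak4 (-2.90). Lox (1.38) and Pfkfb4 (0.77) rose. Of these 6 calls, that of Slc2a1 alone was made without each single library, and that of Pfkfb4 was lost after either scaling. Between mESC and NC the largest differences were higher levels in NC of Vldlr (3.03), Stc1 (2.84), Loxl2 (2.63) and Pfkfb3 (2.38) and lower levels of Pdk1 (-4.88), Slc2a3 (-4.39), Slc2a1 (-3.54) and Hk2 (-3.52). Of these 8, Vldlr and Loxl2 lost their call without NC replicate 2, Vldlr also without NC replicate 1 and Loxl2 without mESC replicate 2.

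A split chosen after the values were seen set the genes of glycolysis and glucose handling apart. Of those 17, 4 rose and 2 fell into NPC, and from NPC to NC 1 rose and 14 fell (median -1.97). Of the remaining 37, 15 rose and 4 fell into NPC, and 2 rose and 7 fell into NC (median -0.58). Over all tested genes the shares were 26.0% and 14.0% into NPC, and 15.2% and 10.1% from NPC to NC. The counts of the split were not repeated with single libraries left out. Of the 14 falls, those of Slc2a1 and Hk2 alone were called without each single library, and the rest were lost without NPC replicate 1. Of the 7 falls among the remaining genes, those of Zfp395 and Tfrc alone were called without each single library. Of the hypoxia response genes, Bnip3, Ankrd37, Adm, Egln1 and Car4 fell from NPC to NC. Not called there were Vegfa (-0.60), Hif1a (0.48), Egln3 (-0.97), Ndrg1 (-0.02) and Car9 (0.19).

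Ranked by mean TPM, the order of the 10 genes changed with the stage. In mESC Vegfa (77.1 ± 64.4, SD, n = 2), Bnip3 (64.8 ± 45.2) and Hif1a (60.4 ± 3.75) led, and each neighbour down to Ndrg1 overlapped with the next in its libraries, so that order is not resolved. Adm (1.63 ± 0.858) and Car9 (1.14 ± 0.251) came last and overlapped with each other. In NPC the order Vegfa (249.9 ± 9.30), Bnip3 (191 ± 27.7), Egln1 (147 ± 23.3) and Hif1a (63.1 ± 2.61) held in both libraries, Hif1a, Car4 and Ankrd37 overlapped in turn, and Car9 was last. In NC Vegfa (164 ± 10.5), Hif1a (88.3 ± 8.24), Egln1 (63.2 ± 8.16) and Bnip3 (37.2 ± 16.2) followed each other without overlap, and Car4 (0.772 ± 0.394) was last, below Car9 (1.45 ± 0.0947). Hif1a thus ranked above Egln1 in mESC and NC and below it in NPC.

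Levels between genes also depend on the deposited unit. Coverage scaled to depth equalled FPKM for Egln1 and Egln3, at a ratio of 1, but was 0.182 to 0.189 of it for Hif1a and 0.191 to 0.218 for Car4. For Vegfa the ratio was 0.556 to 0.582 and for Bnip3 0.685 to 0.751. On the coverage scale Hif1a lay between 5.13 and 6.97, below Egln1 in all 6 libraries (11.4 to 73.7). By mean coverage Egln1 (66.4) led in NPC, ahead of Vegfa (63.4) and Bnip3 (61.9), and in mESC Bnip3 (22.1) was ahead of Vegfa (20.8). In NC Vegfa (37.7) led by coverage as well, ahead of Egln1 (25.3). The places of Hif1a, Egln1, Bnip3 and Vegfa among the 10 thus differ between the units.

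The pathway gene with the most similar profile to each of the 10 was found by Pearson's r of log2(TPM + 1) over the 6 libraries among 113 genes, as a description, since the libraries share their stage. Egln1 was nearest to Flt1 (r = 0.99), Ankrd37 to the glycolytic Tpi1 (0.99), Vegfa to P4ha2 (0.98), Bnip3 to the glycolytic Gpi1 (0.97), and Car4 to Car12 (0.97). Hif1a was nearest to Ndrg4 (0.95), Adm to the oxidase Ero1l (0.94), Egln3 to the demethylase Kdm3a (0.93), Car9 to Cited2 (0.84) and Ndrg1 to Car7 (0.75). Of all tested genes, 2.93% had a higher r with Car9 than the gene named, 2.73% with Ndrg1 and 1.62% with Hif1a. For the other members that share was at most 0.563%. The profiles of Vegfa and P4ha2 share the difference between the mESC libraries as well as that between stages.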

How the data were processed

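RNA of 6 libraries, 2 per stage, was enriched for poly(A), depleted of rRNA and sequenced on an Ion Proton, per the labels' protocols. The submitters' processing notes list STAR 2.7.9a and StringTie 2.1.5 besides cutadapt 3.4, FastQC, DESeq2 and R 4.0.3, with no settings, and the genome build mm10. The annotation release and the strand setting were not given in the sources used here. Per the file headers, the deposited tables are StringTie gene abundances. The deposited TPM values add up to the same total in every library. The deposited FPKM values are per length and aligned bases. The deposited coverage is the mean read depth of a gene, and its ratio to FPKM, 1 constant per library for 38.3% to 39.7% of genes, gives the aligned bases. The tables hold no read counts, so no counting interval can be given. Repeated lines of a gene ID, 2 to 9 in a table, were added together.

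Genes reaching a TPM of 1 in 2 or more libraries were tested with limma 3.58.1 in R 4.3.3 (lmFit, eBayes with trend) on log2(TPM + 1), a scale that understates changes of low genes. The fit took all 6 libraries, 1 coefficient per stage and no replicate block, with 3 residual degrees of freedom. Two-sided p-values were adjusted by Benjamini-Hochberg over all tested genes and called under 0.05. The code was tested on simulated data. Groups of 2 allow no permutation test with p under 0.05, so no test of single values was run. All 10 genes match GENCODE vM21 as protein coding, 6 with the same start and end.

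The members and lists were chosen with earlier results of these data known. All 10 members are named. Also named are every gene of the HIF subunit, VEGF, adrenomedullin and NDRG lists, the called genes of the oxygen sensing, mitophagy and carbonic anhydrase lists, the 4 other HIF targets called with the largest change in each direction of each comparison, and the pathway gene nearest in profile to each member. Of the other HIF targets that this rule names, 1 is not reported here. Alternatives were a pseudocount of 0.1, no filter, a filter at a TPM of 5, median-of-ratios and quantile scaling, FPKM, only the groups compared, robust eBayes, a replicate block, each library left out in turn and, chosen after seeing the data, depth-scaled coverage.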

Additional observations from a re-analysis of the deposited data

How the results depend on the processing

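Of 30 member results (10 genes in 3 comparisons), 13 were called, and 3 of these were called under all 16 alternatives, namely Egln1 in both comparisons with mESC and Car4 between mESC and NC. None of the 13 changed sign. Without any filter on low values 3166 genes were called in NC against NPC in place of 5123. With single libraries left out, the number of genes called ranged from 4032 (without NPC replicate 2) to 8484 in NPC against mESC, 4621 without NPC replicate 1, from 309 (without NPC replicate 1) to 4156 in NC against NPC, 1276 without NPC replicate 2 and 3315 without NC replicate 2, and from 9499 to 11187 in NC against mESC. A library left alone in its group was assumed to vary like the other groups. Robust moderation changed no call of a member. The labels do not say whether the replicate numbers pair the libraries. The deviations of same-numbered libraries correlated at 0.045 between mESC and NPC, and at -0.082 and -0.07 for NC with each. With 2 libraries per stage these values cannot decide whether same-numbered libraries shared a culture or day. With the replicate block, 7368 genes were called from mESC to NPC, 4247 from NPC to NC and 11575 between mESC and NC, and among the 30 member results it ended 1 call and added 2. At a minimum TPM of 5 Car9 was not tested. Without read counts the depth behind a low value such as that of Car9 or of Car4 in NC is unknown, and 2 libraries per stage limit every estimate of the spread.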
